A study of Mus musculus with 24 samples.

Results

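The genes that encode the proteins of the cytosolic ribosome were followed through oocyte growth in mice with and without the chromatin remodeller Snf2h. They were taken from the deposited expression table by gene symbol alone, as every Rpl or Rps gene with a plain number or a suffix a, x, l or l1, the stalk genes Rplp0 to Rplp2, and Rpsa. The rule left out processed pseudogenes and the Rps6k kinases. It gave 83 of the 16940 genes in the table, 51 of the large and 32 of the small subunit. All 83 passed the filter on low values.

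Ribosomal proteins assemble on ribosomal RNA in the nucleolus into a small subunit, which reads the mRNA, and a large subunit, which joins amino acids. Their mRNAs are among the most abundant in a cell, and many start with a run of pyrimidines (a 5′ terminal oligopyrimidine, or TOP, start) through which mTOR signalling sets their translation. A growing oocyte builds up ribosomes for the egg and early embryo, and transcription stops around the end of growth. From then on mRNA levels change through decay, and polyadenylation changes the tails of mRNAs.

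RNA was sequenced from oocytes of B6/129 mice whose Snf2h alleles were floxed in every group (Snf2h fl/fl). The knockout (KO) groups also carried ZP3-Cre, which is driven in oocytes that have begun to grow, and the wild-type (WT) groups did not, so an effect of Cre and the loss of Snf2h cannot be told apart. Growing oocytes were taken at a diameter of 40 to 45 µm (GO1) or 50 to 55 µm (GO2), and fully grown ones, over 70 µm, either without hormone (nFGO) or after it (FGO). A library held 20 oocytes, with 2 libraries for every combination of genotype and stage. No label says that the libraries of a group came from separate animals, so p-values speak of the spread among the sampled libraries alone, which may be technical. For nFGO the 4 libraries are labelled polyA RNA, where the others say total RNA, and they entered the series later, so a stage difference that involves nFGO cannot be told apart from a batch difference. The 8 ATAC-seq samples were not analysed here.

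Smarca5, the gene for Snf2h, stood at 37.1 to 48.7 RPKM in 7 WT libraries, at 13.9 in WT FGO replicate 2, and at 0.701 to 2.06 in the KO libraries. RPKM is the number of reads scaled to transcript length and to the mapped reads of the library. The 15 oocyte markers summed to 11437.0 to 34604.8 RPKM per library. Of 16 granulosa or cumulus markers 7 were in the table, at 14.5 to 72.2 RPKM in sum, with Lhcgr under 1 RPKM everywhere. Of 8 theca or stroma markers 3 were in it, at 0.33 to 11.9 RPKM, with Pdgfra and Star under 1 RPKM everywhere. The upper end came from Dcn, at 11.5 RPKM in WT GO2 replicate 1 and 0.233 in its replicate 2. In fully grown oocytes Dcn was at 1.76 to 2.86 RPKM in WT and 0 to 0.257 in KO. Of 7 blood or immune markers 1 was in it, Cd68, at 1.83 to 5.65 RPKM. The ribosomal protein genes summed to 20705.8 to 28218.5 RPKM per library.

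Ribosomal protein mRNAs made up 2.39 to 3.22% of all RPKM in a library. The median gene stood at 174.2 to 245.4 RPKM. Single genes differed far more than groups did. By mean RPKM over the 16 libraries, Rps29 was highest at 1705.9, and Rpl37 at 1344.2, Rps27l at 1035.1 and Rps13 at 949.9 were also among the 5 highest. Rpl6l was lowest at 8.29, after Rpl10l at 11.3, Rpl7l1 at 32, Rpl7a at 32.7 and Rpl29 at 35.2. 3 of these 5 are relatives of another member (Rpl6, Rpl10 and Rpl7). The genes lay on 19 chromosomes including the X, with 14 of them on chromosome 7. The files hold 73 ribosomal protein pseudogenes, whose summed RPKM was 1.29 to 1.92% of that of the members, and how reads were shared between a gene and its processed copies is not given in the sources used here.

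The start regions of some of these genes are shown because many members moved together between groups. A RefSeq promoter (assembly GRCm38.p6, 250 bases before to 50 after the start) was found for 61 of the 83 genes, 72 promoters in all, beside 32851 promoters of all genes. Sequences below run 5′ to 3′ on the gene's strand from 110 bases before the RefSeq start through the first 10 transcribed bases. They are limited to genes whose RefSeq start was within 30 bases of the start in the deposited table. Capitals mark matches, on either strand, to CCGGAA (the core bound by ETS-family factors), ATGGCG (the core bound by YY1) or GGGCGG (the GC box). None of the matches printed overlaps another. Rpl34 and Rps13 were called higher at GO1 and lower at GO2 in KO, Rps21 and Rps27 were each called at 2 stages, and Rpl9, Rpl5 and Rps3 were among the genes with the largest differences in fully grown oocytes. Rpl5 was also called at GO2. Rpl23, called at GO1, and Rpl10, Rpl24 and Rpl37a, called at GO2, had no match in the same stretch and are not shown. Whether matches go with calls was not tested.
Rpl34, chr3:130730389-130730508, minus strand: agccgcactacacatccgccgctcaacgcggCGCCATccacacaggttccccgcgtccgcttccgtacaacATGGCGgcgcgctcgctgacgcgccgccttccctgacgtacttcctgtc
Rps13, chr7:116334181-116334300, minus strand: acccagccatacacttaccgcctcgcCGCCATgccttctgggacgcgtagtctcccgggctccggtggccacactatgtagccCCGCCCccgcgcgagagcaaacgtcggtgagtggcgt
Rps21, chr2:180257269-180257388, plus strand: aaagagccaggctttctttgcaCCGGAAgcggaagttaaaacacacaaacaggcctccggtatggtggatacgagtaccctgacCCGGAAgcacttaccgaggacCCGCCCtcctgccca
Rps27, chr3:90213639-90213758, minus strand: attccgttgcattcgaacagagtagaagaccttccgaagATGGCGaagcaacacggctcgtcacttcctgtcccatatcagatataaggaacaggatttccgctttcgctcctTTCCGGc
Rpl9, chr5:65391422-65391541, minus strand: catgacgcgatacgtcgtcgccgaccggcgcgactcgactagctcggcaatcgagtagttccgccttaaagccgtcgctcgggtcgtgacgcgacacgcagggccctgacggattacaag
Rpl5, chr5:107900418-107900537, plus strand: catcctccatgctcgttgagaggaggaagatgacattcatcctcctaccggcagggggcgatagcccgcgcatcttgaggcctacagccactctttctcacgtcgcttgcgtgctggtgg
Rps3, chr7:99483700-99483819, minus strand: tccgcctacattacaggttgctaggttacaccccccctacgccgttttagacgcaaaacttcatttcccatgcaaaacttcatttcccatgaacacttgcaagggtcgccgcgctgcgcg

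Over the whole RefSeq windows, CCGGAA was in 35 of the 72 ribosomal protein promoters (48.6%) and in 14.9% of all promoters. ATGGCG was in 33.3% and 8.93%, and GGGCGG in 61.1% and 35.7%. TATAAA, the TATA box core, was in 9.72% of the ribosomal protein promoters and 13.6% of all. A TOP-like start, a C followed by 4 bases that are each C or T, lay on the gene's strand within 5 bases of the start in 43.1% of them and 18.3% of all. These shares describe letters in a window and are not binding sites. RefSeq starts need not be the starts used in oocytes.

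The question at GO1, the earliest stage, was how mRNA levels differed between KO and WT oocytes. Ribosomal protein mRNAs were higher in KO oocytes there. Of the 83 genes, 22 were called higher and 0 lower by limma at a Benjamini-Hochberg adjusted p under 0.05 over 14557 genes, where 2.16% of all genes were called higher and 4.47% lower. Unadjusted p-values under 0.05 were found for 54 higher and 2 lower members, where all genes gave 10.1% higher and 14.4% lower. Differences are on the log2(RPKM + 1) scale throughout. Their median over the 83 genes was 0.29, a 1.22-fold difference, beside -0.03 over all genes, and 77 of 83 lay above 0. The small subunit had 12 of 32 called and a median of 0.32, the large subunit 10 of 51 and 0.25. By library, the mean log2 level of the 83 genes was 7.49 and 7.43 for WT GO1 against 7.77 and 7.70 for KO GO1, and the pooled within-group SD of this mean was 0.046. The oocyte markers summed to 31808.2 to 34604.8 RPKM in WT GO1 and to 23685.4 to 31643.7 in KO GO1, and the RPKM total was 869116.5 in KO GO1 replicate 1 against 909689.2 to 920336.5 in the other 3 GO1 libraries. Their part in the GO1 result was not tested. In the authors' deposited table, made from the same reads, the median log2 fold change of these genes at GO1 was 0.30 in the direction that follows KO over WT in RPKM.

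**Figure D1:**
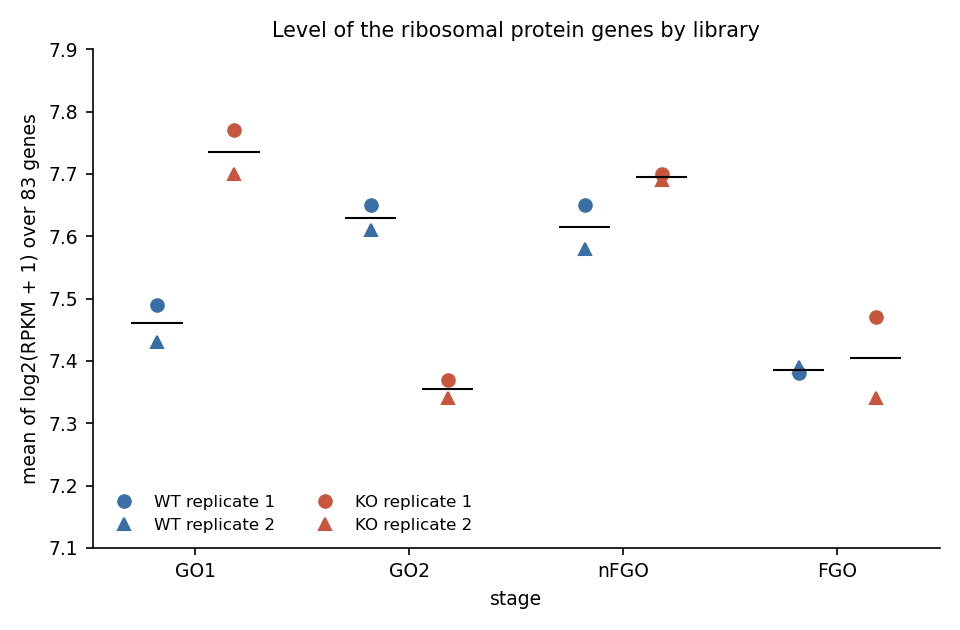
Mean of log2(RPKM + 1) over the 83 ribosomal protein genes (y axis, cut to 7.1 to 7.9) in each of the 16 libraries by stage (x axis). Symbols are libraries and lines are group means. KO lies above WT at GO1 (7.77 and 7.70 against 7.49 and 7.43) and below it at GO2 (7.37 and 7.34 against 7.65 and 7.61).

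Rps19, a small-subunit protein mutated in human Diamond-Blackfan anaemia, stood at 260.7 and 241.2 RPKM in WT GO1 and at 359.8 and 387.7 RPKM in KO GO1. It had the largest difference among the called genes, 0.57 ± 0.10 (SE, adjusted p = 0.00904). Every KO library lay above every WT library.

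Rps21, of the small subunit, was at 253.4 and 217.3 RPKM in WT and 367.8 and 315.5 in KO (0.54 ± 0.09, adjusted p = 0.00829). Rps20, at the head of the small subunit, was at 117.3 and 119.2 RPKM in WT and 194.4 and 149.8 in KO (0.53 ± 0.12, adjusted p = 0.0276). The KO libraries again lay above the WT libraries for both. Rpl35a, also a human Diamond-Blackfan anaemia gene, went from 155.7 and 154.7 to 238.2 and 206.9 RPKM (0.51 ± 0.12, adjusted p = 0.0275). Rpl36a, of the large subunit, went from 166.2 and 142.6 to 233.4 and 202.7 RPKM (0.50 ± 0.11, adjusted p = 0.0192).

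Rpl34, of the large subunit, and Rps13, of the small subunit, had smaller differences with little spread. Rpl34 was at 358.0 and 346.3 RPKM in WT and 447.9 and 438.3 in KO (0.33 ± 0.07, adjusted p = 0.0156). Rps13 was at 861.5 and 825.8 RPKM in WT and 1014.0 and 1011.2 in KO (0.26 ± 0.06, adjusted p = 0.0243).

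6 of the 83 genes had a difference below 0, and none of them was called. Rpl7l1, a relative of Rpl7 known for a role in ribosome assembly, measured 37 and 39.7 RPKM in WT and 26.1 and 34.6 in KO (-0.34 ± 0.15, adjusted p = 0.18). Rpl5, which with Rpl11 binds 5S ribosomal RNA and restrains Mdm2, measured 1008.5 and 968.8 in WT and 789.2 and 862.7 in KO (-0.26 ± 0.09, adjusted p = 0.112). Its partner Rpl11 lay on the other side of 0, at 0.18 ± 0.09 (adjusted p = 0.231).

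The count of calls at GO1 rested on the pooled spread and on single libraries. Omitting WT GO1 replicate 1 gave 7 calls and omitting its replicate 2 gave 0, while omitting KO GO1 replicate 1 gave 2 and omitting its replicate 2 gave 38. A fit of the 4 GO1 libraries alone gave 0. No single gene stayed called with each library left out in turn, while the median stayed between 0.25 and 0.35.

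At GO2 the same genes were lower in KO oocytes. Of the 83, 28 were called lower and 0 higher, where 4.68% of all genes were called lower and 2.96% higher. Without adjustment 56 were lower and 0 higher at a p under 0.05, where all genes gave 13.1% lower and 10.7% higher. The median difference was -0.30, a 1.23-fold difference, beside 0.00 over all genes, and 79 of 83 lay below 0. Both subunits took part, with 15 of 32 small-subunit and 13 of 51 large-subunit genes called. The median log2 fold change at GO2 in the authors' deposited table was -0.28.

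The share of ribosomal protein genes in all RPKM was 2.9 and 2.81% in the WT GO2 libraries and 2.53 and 2.49% in the KO GO2 libraries. At GO1 it was 2.5 and 2.41% in WT and 3.22 and 2.88% in KO. The RPKM total itself was lower in KO GO2 (845605.3 and 832383.9) than in WT GO2 (924633.1 and 927347.3), and the part of this in the GO2 result was not tested beyond the rescaled fits given at the end. Granulosa or cumulus markers summed to 20.5 to 21.6 RPKM in WT GO1 and 14.5 to 18.2 in KO GO1, and to 17.1 to 22.3 in WT GO2 and 26.7 to 33.5 in KO GO2. Among them Cyp19a1 had group means of 4.01 RPKM in WT GO2 and 13.5 in KO GO2. Kitl (1.94 and 4.27) and Inhba (0.0251 and 0.722) were also higher in KO GO2. Nr5a2 (10.7 and 9.93), Fshr (1.74 and 1.35), Inha (0.985 and 0.205) and Lhcgr (0.302 and 0.118) were lower. The part of these markers in the results was not tested. RPKM is relative, so less of these mRNAs per oocyte and more RNA of other genes cannot be told apart.

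**Figure D2:**
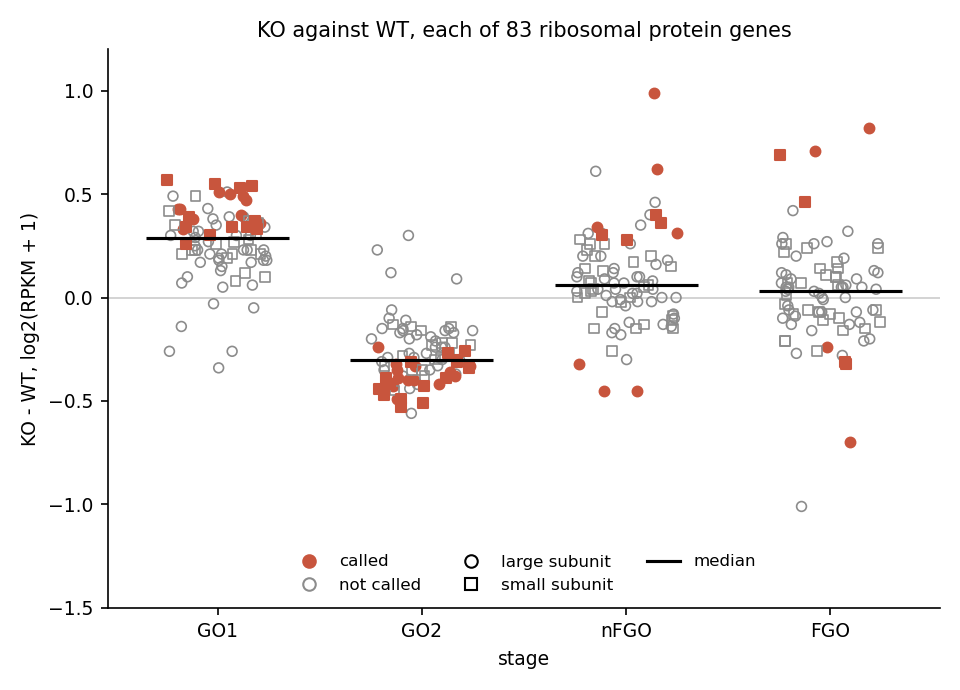
Difference KO less WT of log2(RPKM + 1) (y axis) for each of the 83 ribosomal protein genes at the 4 stages (x axis, points spread sideways). Filled points were called by limma, circles are large-subunit and squares small-subunit genes, and lines are medians. The medians are 0.29 at GO1, -0.30 at GO2, 0.06 at nFGO and 0.03 at FGO.

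Rps20 and Rps19, which were called higher at GO1, had the largest called differences at GO2 as well. Rps20 was at 155.2 and 158.0 RPKM in WT GO2 and 111.4 and 104.3 in KO GO2 (-0.53 ± 0.12, adjusted p = 0.0237). Rps19 was at 316.1 and 275.0 RPKM in WT and 205.5 and 206.8 in KO (-0.51 ± 0.10, adjusted p = 0.0149). For both, each KO library lay below each WT library.

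Rps27, a zinc-finger protein of the small subunit, was at 603.3 and 504.5 RPKM in WT and 396.1 and 390.5 in KO (-0.49 ± 0.12, adjusted p = 0.0354). Its close paralog Rps27l, a p53 target in human cells, was at 1149.3 and 1236.5 RPKM in WT and 896.4 and 828.0 in KO (-0.47 ± 0.11, adjusted p = 0.025). Rpl35, which sits by the exit of the nascent chain, was at 686.6 and 717.0 RPKM in WT and 511.7 and 489.9 in KO (-0.49 ± 0.08, adjusted p = 0.00629). The groups did not overlap in any of these. Rps15a, of the small subunit, was at 413.4 and 399.1 RPKM in WT and 284.5 and 313.1 in KO (-0.44 ± 0.08, adjusted p = 0.0114).

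The gene with the highest mean level was lower as well. Rps29 was at 1992.6 and 1996.7 RPKM in WT GO2 and at 1562.0 and 1428.9 in KO GO2 (-0.42 ± 0.08, adjusted p = 0.0129). Rpl34 was at 415.6 and 409.0 RPKM in WT and 350.5 and 346.2 in KO (-0.24 ± 0.07, adjusted p = 0.0488), and Rps13 was called lower by the same size as it was higher at GO1 (-0.26 ± 0.06, adjusted p = 0.0254). Among genes with known further roles, Rpl5 (-0.40), Rpl11 (-0.38), the stalk genes Rplp1 (-0.33) and Rplp2 (-0.36), and Rps27a (-0.31), which is made as a fusion with ubiquitin, were called lower. Rplp0 (-0.35, adjusted p = 0.0562), Rps6 (-0.23, adjusted p = 0.131), the target of S6 kinase, and Rpsa (-0.28, adjusted p = 0.344) were not.

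4 genes lay above 0 at GO2. Rpl6l was at 7.65 and 7.66 RPKM in WT and 10.1 and 9.25 in KO (0.30 ± 0.20, adjusted p = 0.396). Rpl10l, a relative of Rpl10 known in mice for its role in male meiosis, was at 12.5 and 18.2 RPKM in WT and 15.4 and 20.6 in KO, so that the groups overlapped (0.23 ± 0.24, adjusted p = 0.619).

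For GO2, omitting either WT library gave 1 call, omitting KO GO2 replicate 1 gave 3 and omitting its replicate 2 gave 0, and a fit of the 4 GO2 libraries alone gave 3. The count fell to 4 with quantile normalization, where the median was -0.16. The median was between -0.33 and -0.27 when single libraries were left out.

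The reversal between the growing stages was tested as the KO effect at GO2 less that at GO1. This difference was called negative in 42 of 83 genes and positive in 0, where 2.16% of all genes were called negative and 1.84% positive. It was negative in 69 and positive in 0 at an unadjusted p under 0.05, where all genes gave 10% negative and 11.9% positive. Its median was -0.57, beside 0.02 over all genes. 75 of the 83 lay above 0 at GO1 and below 0 at GO2, as did 23.1% of all genes. 10 were called higher at GO1 and lower at GO2, as were 0.22% of all genes, among them Rpl34, Rpl38, Rps13, Rps15a, Rps19, Rps20, Rps24, Rps25 and Rps29. Among the called genes, the largest differences of the effects were -1.09 ± 0.15 for Rps19 (adjusted p = 0.0108) and -1.06 ± 0.17 for Rps20 (adjusted p = 0.015). Next among the called genes came Rps23 (-0.87, adjusted p = 0.0452), Rpl36a (-0.84, adjusted p = 0.0191), Rps15a (-0.82, adjusted p = 0.0113) and Rps21 (-0.80, adjusted p = 0.0151).

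2 named genes lay against this trend without a call, Rpl10l at 0.37 ± 0.34 (adjusted p = 0.551) and Rpl7l1 at 0.17 ± 0.21 (adjusted p = 0.68). For Rpl5, low in KO at both stages, the difference of the effects was not called either (-0.14 ± 0.13, adjusted p = 0.579). Omitting replicate 1 or 2 of WT GO1 turned the count of 42 into 17 or 1, and of KO GO1 into 17 or 51. Omitting replicate 1 or 2 of WT GO2 gave 12 or 4, and of KO GO2 18 or 0. The count was 0 when only the 8 libraries of the growing stages were fitted, and the median stayed between -0.61 and -0.54 when single libraries were left out.

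Seen by genotype, the order of the levels reversed during early growth, with higher levels in KO at GO1 and in WT at GO2. From GO1 to GO2, 14 of 83 genes were called higher and 0 lower in WT oocytes, where 3.17% of all genes were called higher and 4.38% lower. The median was 0.21, and at an unadjusted p under 0.05 40 were higher and 2 lower, where all genes gave 12.2% higher and 13.5% lower. In KO oocytes 0 were called higher and 44 lower, where 5.41% of all genes were called higher and 4.09% lower. There the median was -0.38, and at an unadjusted p under 0.05 0 were higher and 67 lower, where all genes gave 12.5% higher and 11.6% lower. 7 members and 0.22% of all genes were called higher in WT and lower in KO. The members were Rpl27, Rpl32, Rps15a, Rps21, Rps24, Rps25 and Rps29. These are the same 8 libraries as above, set side by side along growth, and add no independent evidence.

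In WT, Rps12, of the small subunit, went from 76.3 and 66.8 RPKM at GO1 to 107.4 and 93.6 at GO2, a rise of 0.48 ± 0.12 (adjusted p = 0.038). Rps27 rose by 0.45 ± 0.12 (adjusted p = 0.0472), Rpl37 by 0.43 ± 0.08 (adjusted p = 0.0123) and Rps15a by 0.42 ± 0.08 (adjusted p = 0.0171). In KO, Rps23, which lines the decoding centre, fell from 359.1 and 343.5 to 178.9 and 160.7 RPKM, by 1.05 ± 0.15 (adjusted p = 0.00203). Rps4l, a relative of the X-linked Rps4x, fell from 332.4 and 337.1 to 184.5 and 151.7 RPKM, by 1.0 ± 0.17 (adjusted p = 0.00397). Rps19 fell by 0.85 ± 0.10 (adjusted p = 0.00102) and Rps20 by 0.66 ± 0.12 (adjusted p = 0.00627). The groups did not overlap in any of these.

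The WT count of 14 became 1 or 0 on omitting replicate 1 or 2 of WT GO1, and 0 or 2 on omitting replicate 1 or 2 of WT GO2. The KO count of 44 became 21 or 43 on omitting replicate 1 or 2 of KO GO1, 21 or 5 on omitting replicate 1 or 2 of KO GO2, and 0 with only those 4 libraries. Rps19, Rps23 and Rpl35 were among the genes that stayed called in KO with each library left out.

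In fully grown oocytes few members were called and the medians were near 0. At nFGO 8 of 83 genes were called higher and 3 lower in KO, where 6.77% of all genes were called higher and 9.4% lower. The median difference was 0.06. At FGO 4 were called higher and 4 lower, where 7.67% of all genes were called higher and 10.2% lower, and the median was 0.03. Granulosa or cumulus markers summed to 42.9 to 45.2 RPKM in WT nFGO and 64 to 72.2 in KO nFGO, and to 36.3 to 45.5 in WT FGO and 46.4 to 51.9 in KO FGO. Most of each sum was Cyp19a1, with WT and KO means of 26.3 and 41.4 RPKM at nFGO and 27.4 and 35.2 at FGO. Fshr, Inha and Inhba also had higher means in KO at both stages. Kitl (5.56 and 4.05 at nFGO, 3.93 and 2.56 at FGO) and Lhcgr had lower ones. Nr5a2 was near equal (9.59 and 9.69, 9.13 and 9.39). The part of these markers was not tested. The shares of members called are 9.64 and 3.61% at nFGO and 4.82% each way at FGO, near or below those of all genes. With quantile normalization the count at FGO was 14, and the medians were 0.14 at nFGO and 0.12 at FGO.

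Rpl9, of the large subunit, was at 16.6 and 12.2 RPKM in WT nFGO and at 28.8 and 29.7 in KO nFGO, a difference of 0.99 ± 0.13 (adjusted p = 0.000527). At FGO it was at 11.5 and 11.3 RPKM in WT and 18.4 and 20.3 in KO (0.71 ± 0.13, adjusted p = 0.00313). In growing oocytes, where its level was several times higher, Rpl9 was not called (0.23 at GO1 and -0.15 at GO2). The KO effect on Rpl9 was greater than at GO2 by 1.14 ± 0.18 at nFGO (adjusted p = 0.013) and by 0.86 ± 0.18 at FGO (adjusted p = 0.0247).

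Rpl3, which lies close to the peptidyl transferase centre, was at 20.8 and 25.3 RPKM in WT nFGO and 35.2 and 36.2 in KO nFGO (0.62 ± 0.15, adjusted p = 0.0172). At FGO it was at 24.3 and 20.3 RPKM in WT and 35.4 and 45.2 in KO (0.82 ± 0.15, adjusted p = 0.00363). Rps3, at the mRNA entry of the small subunit, was at 38.4 and 42.4 RPKM in WT FGO and 67.5 and 63.9 in KO FGO (0.69 ± 0.14, adjusted p = 0.00667). KO lay above WT without overlap for all of these.

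Rpl5 was the opposite case. It was at 931.8 and 971.1 RPKM in WT nFGO and 652.8 and 738.5 in KO nFGO (-0.45 ± 0.09, adjusted p = 0.00721), and at 843.7 and 962.7 in WT FGO and 526.8 and 583.2 in KO FGO (-0.70 ± 0.09, adjusted p = 0.000508). Its KO libraries lay below its WT libraries at each of the 4 stages, and it was called at 3 of them. Rpl11 did not share this, with differences of 0.00 at nFGO and -0.01 at FGO. Of the 83 members, 2 lay below 0 at all 4 stages (Rpl5 and Rpl17), as did 16.7% of all genes, and 2 lay above 0 at all 4 (Rpl3 and Rpl6l), as did 14% of all genes. Rpl17 varied widely between libraries of a group (43.2 and 230.2 RPKM in WT GO1), and its difference of -1.01 ± 0.61 at FGO was not called (adjusted p = 0.286).

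**Figure D3:**
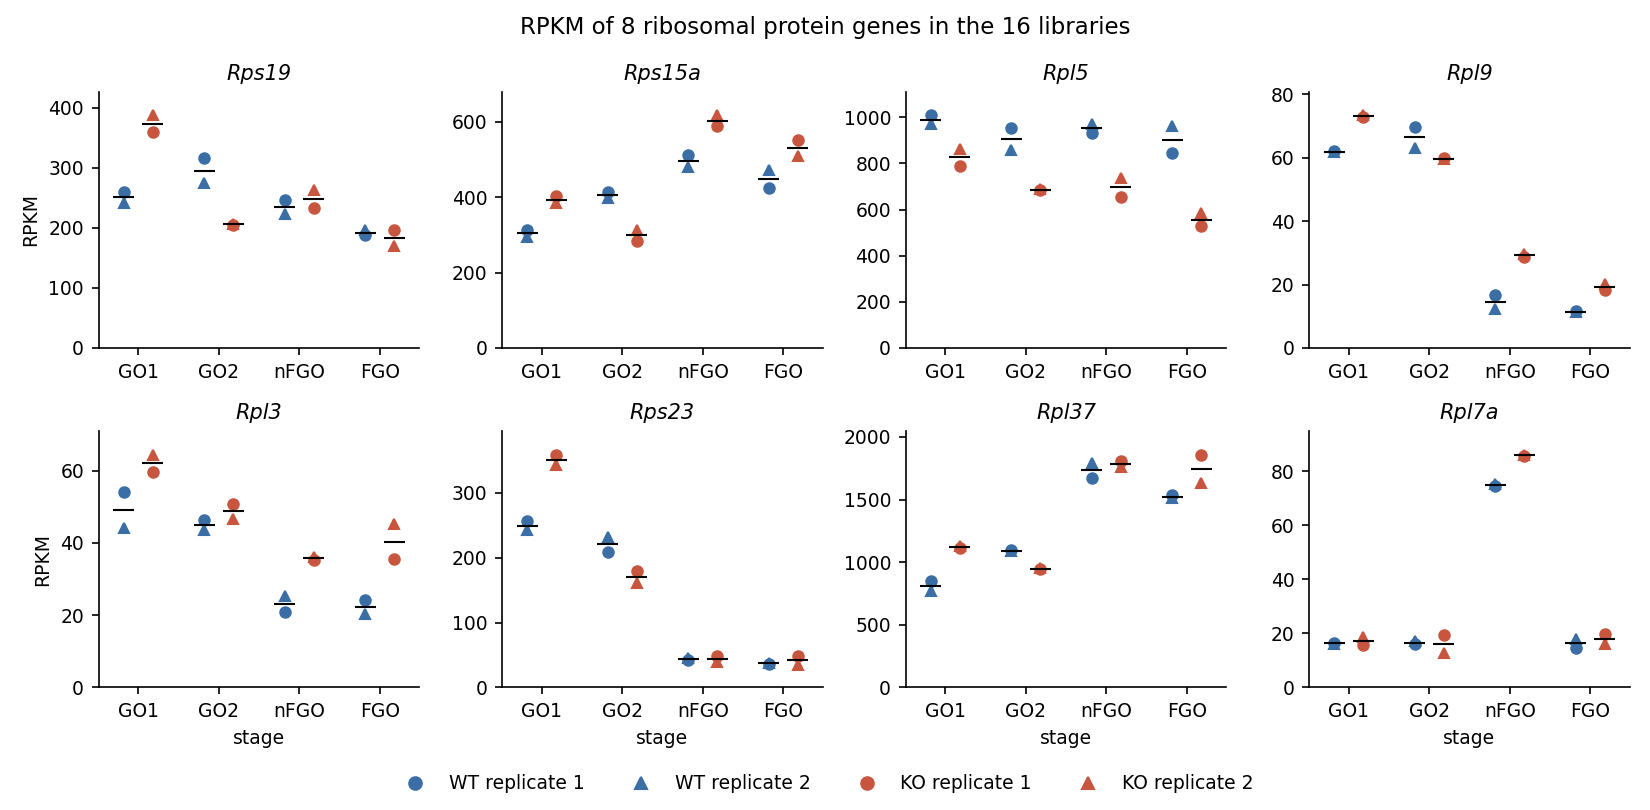
RPKM (y axes, from 0) of 8 ribosomal protein genes in the 16 libraries by stage (x axes). Symbols are libraries and lines are group means. Rpl5 is lower in KO at each stage, Rpl9 and Rpl3 are higher in KO in fully grown oocytes, Rps23 and Rpl9 drop between GO2 and the fully grown stages, and Rpl7a is high in the nFGO libraries (74.6 to 86.2 RPKM) in both genotypes.

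Among the other genes called at nFGO, Rpl21 was at 135.1 and 127.8 RPKM in WT and 95.3 and 96.8 in KO (-0.45 ± 0.09, adjusted p = 0.00658). Rps27 was at 369.1 and 339.1 RPKM in WT and 443.5 and 490.1 in KO (0.40 ± 0.12, adjusted p = 0.0468). Rps27l was at 1061.9 and 1014.7 RPKM in WT and 1322.7 and 1349.2 in KO (0.36 ± 0.11, adjusted p = 0.04). Rps6 (0.30) and Rps15a (0.28) were called higher and Rplp2 (-0.32) lower. At FGO, Rps21 was at 281.3 and 284.5 RPKM in WT and 396.8 and 382.0 in KO (0.46 ± 0.09, adjusted p = 0.00633). Rps25, needed for initiation at viral internal ribosome entry sites in yeast and human cells, was at 898.2 and 844.6 RPKM in WT and 740.1 and 656.3 in KO (-0.32 ± 0.09, adjusted p = 0.0271).

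At nFGO the count of 11 became 4 or 3 on omitting replicate 1 or 2 of WT nFGO and 2 or 4 on omitting replicate 1 or 2 of KO nFGO, and Rpl9 and Rpl21 stayed called each time. The nFGO call on Rpl5 was lost without WT nFGO replicate 2 or KO nFGO replicate 1, and that on Rpl3 without WT nFGO replicate 1 or either KO nFGO library. At FGO the count of 8 became 5 on omitting either WT FGO library, of which replicate 2 is the one with the low Smarca5, and 8 or 6 on omitting replicate 1 or 2 of KO FGO. Rps3, Rps21, Rpl9, Rpl5 and Rpl3 stayed called each time.

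Set against GO2, the KO effect was more positive in both fully grown groups. The FGO effect less the GO2 effect had a median of 0.30, with 10 of 83 called positive and 0 negative, where 1.89% of all genes were called positive and 1.91% negative. At an unadjusted p under 0.05 37 were positive and 1 negative, where all genes gave 9.82% positive and 10.8% negative. The nFGO effect less the GO2 effect had a median of 0.36, with 8 called positive and 0 negative, where 1.46% of all genes were called positive and 1.72% negative. At an unadjusted p under 0.05 46 were positive and 0 negative, where all genes gave 9.59% positive and 10.9% negative. Both share the GO2 libraries with each other and with the GO2 comparison above. Rps15a was called in both, at 0.68 ± 0.12 (adjusted p = 0.00968) and 0.72 ± 0.12 (adjusted p = 0.013), and stayed called in both with each library left out. Rps27 was also called in both, at 0.75 ± 0.17 (adjusted p = 0.0359) and 0.88 ± 0.17 (adjusted p = 0.0239). Rps3 was called at FGO (0.83 ± 0.20, adjusted p = 0.0453), as was Rps21 (0.73 ± 0.13, adjusted p = 0.0137). Rps27l was called at nFGO (0.83 ± 0.15, adjusted p = 0.019).
The count of 10 at FGO became 2 or 1 on omitting replicate 1 or 2 of WT GO2, 2 or 1 for KO GO2, 4 or 3 for WT FGO and 3 or 5 for KO FGO. The count of 8 at nFGO became 3 on omitting either WT GO2 library, 3 or 1 on omitting replicate 1 or 2 of KO GO2, 4 or 2 for WT nFGO and 2 or 3 for KO nFGO.

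From GO2 to FGO, called late growth here, a handful of ribosomal protein mRNAs fell several-fold in both genotypes. FGO oocytes were taken after hormone, so growth and hormone cannot be told apart in this comparison. In WT 5 of 83 were called higher and 28 lower, where 26.3% of all genes were called higher and 22.1% lower, and the median was -0.14. In KO 23 were called higher and 9 lower, where 22.3% of all genes were called higher and 19.4% lower, and the median was 0.13. With quantile normalization the medians were -0.24 in WT and 0.02 in KO, and with single libraries left out the KO median was between 0.04 and 0.22. The share of members called lower was 33.7% in WT, above that of all genes, and 10.8% in KO, below it. The share called higher was 6.02% in WT, below that of all genes, and 27.7% in KO, above it. 8 members and 14% of all genes were called lower in both genotypes, a smaller share of the members than of all genes. These members were Rpl7, Rpl9, Rpl10l, Rpl12, Rpl37a, Rps4l, Rps6 and Rps23. 5 members and 16.4% of all genes were called higher in both, again a smaller share of the members. These members were Rpl4, Rpl30, Rpl37, Rpl39l and Rplp0. Of the genes called lower in both, Rpl37a was not lower at nFGO than at GO2. It was at 209.6 and 179.5 RPKM in WT nFGO and 169.3 and 170.6 in WT GO2. In KO it was at 198.1 and 195.7 at nFGO and 130.4 and 126.0 at GO2. The other genes called lower in both had lower mean RPKM at nFGO than at GO2 in each genotype.

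Rps23 fell in WT from 209.0 and 232.2 RPKM at GO2 to 36.3 and 38 at FGO, by 2.54 ± 0.15 (adjusted p = 2.18e-07), and in KO from 178.9 and 160.7 to 49.1 and 34.1 RPKM, by 2.02 ± 0.15 (adjusted p = 2.77e-06). Rpl9 fell in WT from 69.7 and 62.9 to 11.5 and 11.3 RPKM, by 2.44 ± 0.13 (adjusted p = 1.13e-07), and in KO from 59.9 and 59.4 to 18.4 and 20.3, by 1.58 ± 0.13 (adjusted p = 4.26e-06). Rpl10l fell in WT from 12.5 and 18.2 to 3.15 and 3.43 RPKM, by 1.90 ± 0.24 (adjusted p = 5.26e-05), and in KO by 1.85 ± 0.24 (adjusted p = 9.72e-05). These genes were already low at nFGO, at 39.7 to 48.4 RPKM for Rps23, 12.2 to 29.7 for Rpl9 and 2.01 to 5.03 for Rpl10l. Rps4l fell by 1.30 ± 0.17 in WT (adjusted p = 6.12e-05) and 1.11 ± 0.17 in KO (adjusted p = 0.000283). Rpl7 fell by 0.99 ± 0.11 in WT (adjusted p = 1.53e-05) and 0.74 ± 0.11 in KO (adjusted p = 0.000205), and Rps6 by 0.79 and 0.34.

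Rpl37, of the large subunit, rose from 1094.1 and 1086.8 RPKM at WT GO2 to 1536.5 and 1510.3 at WT FGO (0.48 ± 0.08, adjusted p = 0.000265), and in KO from 942.6 and 952.2 to 1858.6 and 1629.4 RPKM (0.88 ± 0.08, adjusted p = 6.01e-06). The stalk protein gene Rplp0 rose by 0.27 in WT (adjusted p = 0.0406) and 0.70 in KO (adjusted p = 0.000187). Its stalk partners did not follow. Rplp1 fell in WT by 0.50 (adjusted p = 0.000639) and was at -0.12 in KO (adjusted p = 0.317), and Rplp2 was at 0.10 and 0.19 without a call. In KO the rise took in Rps15a (0.83 ± 0.08, adjusted p = 1.62e-05) and Rps21 (0.60 ± 0.09, adjusted p = 0.000374), which were not called in WT (0.14 and -0.13) and whose difference between genotypes was called, as given above.

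**Figure D4:**
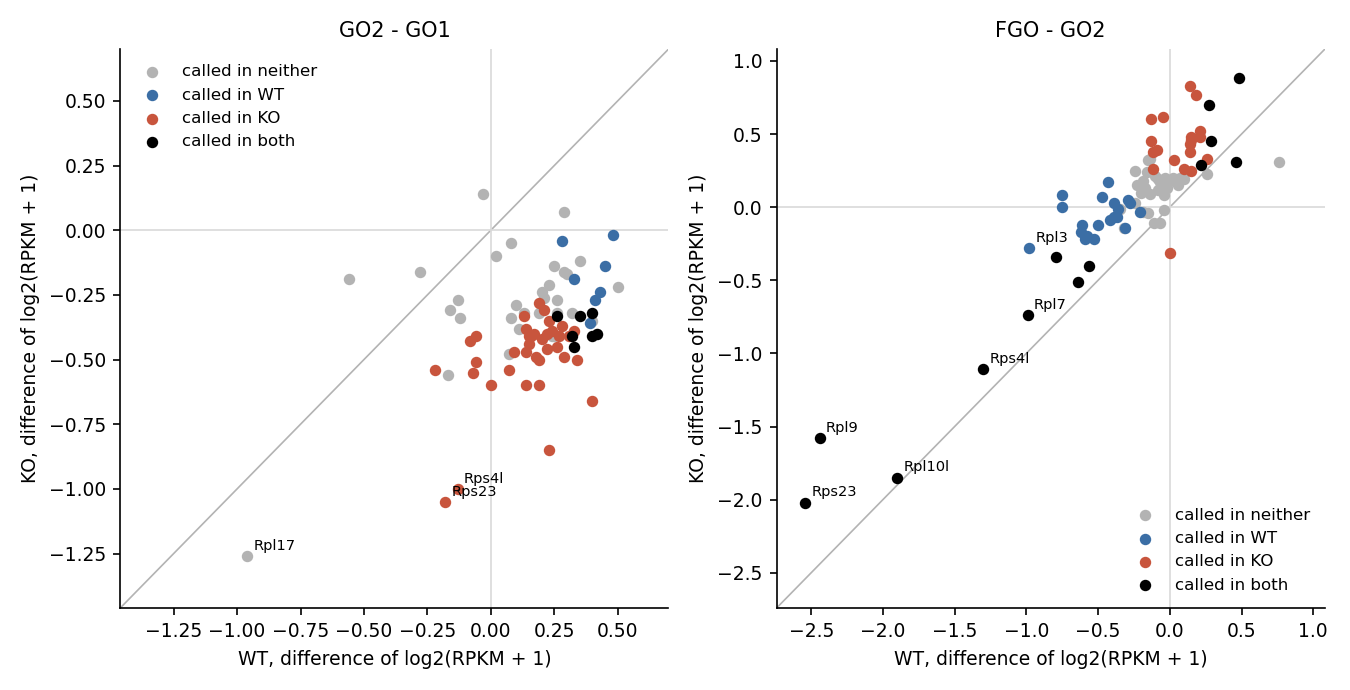
Change of each of the 83 ribosomal protein genes in WT (x axes) and KO (y axes), as differences of log2(RPKM + 1), from GO1 to GO2 (left) and from GO2 to FGO (right). Colour gives the calls by limma and the diagonal marks equal change. On the left most genes lie to the right of 0 and below it (medians 0.21 and -0.38), and on the right Rps23, Rpl9, Rpl10l, Rps4l and Rpl7 fell in both genotypes.

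On omitting replicate 1 or 2, the WT late growth count of 33 became 24 or 29 for WT GO2 and 24 or 29 for WT FGO, and the KO count of 32 became 26 or 22 for KO GO2 and 22 or 29 for KO FGO. Of the calls, 23 in WT and 19 in KO held with every library left out, among them those on Rps23, Rpl9, Rpl10l, Rps4l, Rpl7 and Rpl37.

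Between the fully grown groups, levels after hormone were compared with those without. In WT 0 of 83 were called higher and 9 lower at FGO than at nFGO, where 0.811% of all genes were called higher and 1.88% lower. At an unadjusted p under 0.05 1 was higher and 31 lower, where all genes gave 6.97% higher and 9.95% lower, and the median was -0.15. In KO 0 were called higher and 17 lower, where 1.86% of all genes were called higher and 2.37% lower. At an unadjusted p under 0.05 1 was higher and 42 lower, where all genes gave 9.36% higher and 11.4% lower, and the median was -0.23. 8 members and 0.666% of all genes were called lower in both genotypes. The members were Rpl7a, Rpl11, Rpl30, Rpl35a, Rpl37a, Rpl38, Rps2 and Rps27a.

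Rpl7a, of the large subunit, was at 74.6 and 75.2 RPKM in WT nFGO and 14.7 and 18 in WT FGO (-2.13 ± 0.18, adjusted p = 3.14e-05), and at 85.8 and 86.2 in KO nFGO and 19.8 and 16 in KO FGO (-2.21 ± 0.18, adjusted p = 2.5e-05). Its 8 GO1 and GO2 libraries were at 12.8 to 19.5 RPKM, like FGO, so that the nFGO libraries stood apart. Rps2, of the small subunit, was at 69 and 61.3 RPKM in WT nFGO and 23.4 and 26.9 in WT FGO (-1.34 ± 0.12, adjusted p = 8.35e-05), at 85.8 and 73.5 in KO nFGO and 29.9 and 27 in KO FGO (-1.45 ± 0.12, adjusted p = 4.12e-05), and at 23.5 to 34.2 RPKM in the growing stages. From nFGO to FGO, Rpl37a fell by 0.83 in WT and 1.12 in KO, Rpl35a fell by 0.89 and 0.93, and Rps27a fell by 0.57 and 0.65.

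The pseudogene Rps27a-ps2, which is no member and was picked after its values were seen, went the other way, with 0.324 to 1.01 RPKM in the 4 nFGO libraries and 17.7 to 32.3 in the 12 others. Rpl17 also stood highest in nFGO (238.0 to 323.4 RPKM against 33.8 to 230.2 elsewhere), and its KO fall of 2.50 ± 0.61 was called (adjusted p = 0.0425). Since nFGO libraries differ from FGO libraries by hormone, by RNA label and by date of entry, these cannot be told apart.

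On omitting replicate 1 or 2, the WT count of 9 became 6 or 5 for WT FGO and 5 or 7 for WT nFGO, and the KO count of 17 became 13 or 6 for KO FGO and 7 or 6 for KO nFGO. Rps27a, Rps2, Rpl37a, Rpl35a and Rpl7a stayed called in both genotypes each time.

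7 members are close relatives of another member, and their RPKM ratios within a library do not depend on the library's scale. Rps4l over Rps4x was 1 and 1.01 in WT GO1 and 1.26 and 1.28 in KO GO1, and it was 0.237 to 0.324 in the 8 fully grown libraries. Rps4x itself was at 243.0 and 256.1 RPKM in WT GO1 and 315.4 and 342.2 in WT FGO. The shift thus came with the fall of Rps4l, from 244.2 and 257.4 to 77.3 and 111.0 RPKM. Rpl10l over Rpl10 was 0.0471 to 0.107 in the growing libraries and 0.0112 to 0.0328 in the fully grown ones.

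Rps27l stood above Rps27 in every library, at ratios of 1.91 to 2.99. Rpl39l, known in mice from testis and stem cells, was at 0.461 to 0.697 of Rpl39. Rpl22l1 and Rpl22 were near equal at 0.807 to 1.41. Rpl7l1 was at 0.115 to 0.312 of Rpl7 and Rpl6l at 0.0679 to 0.187 of Rpl6. No test was run on these ratios, and reads that fit both relatives may have been shared between them.

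**Figure D5:**
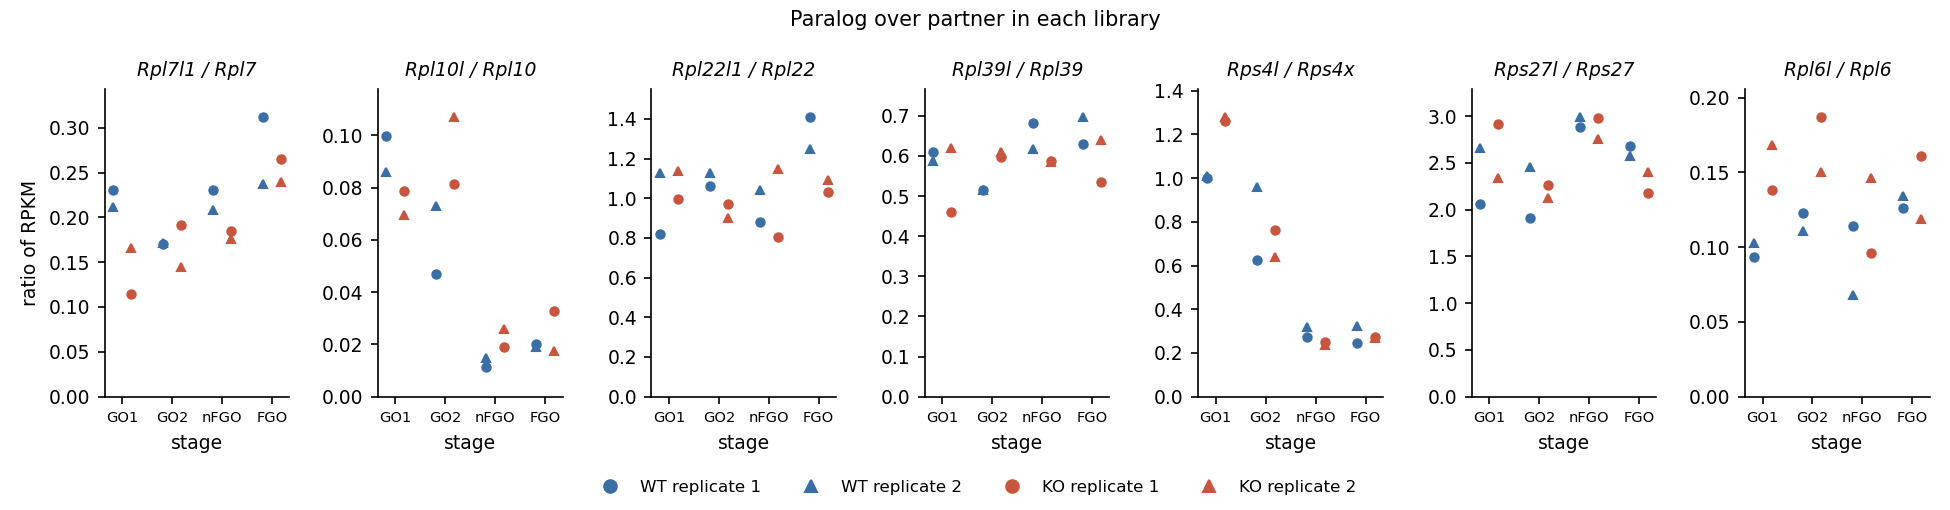
Ratio of RPKM (y axes, from 0) of 7 paralogs over their partner in the 16 libraries by stage (x axes). Symbols are libraries. Rps4l over Rps4x falls from 1 to 1.28 at GO1 to 0.237 to 0.324 in fully grown oocytes, and Rpl10l over Rpl10 falls as well.

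Other genes of protein synthesis gave a setting for the members. Of 4 tested genes of other cytosolic ribosome proteins, 1 was called higher at GO1 (Rpl36al, 0.31) and 1 lower at GO2, with medians of 0.27 and -0.24. At nFGO 1 was called higher and 1 lower, and at FGO 1 higher and 0 lower. Fau, whose product holds the small-subunit protein eS30, was the lower one, at 514.8 and 478.1 RPKM in WT nFGO and 395.9 and 399.1 in KO nFGO (-0.32, adjusted p = 0.0374). Rack1, a scaffold on the small subunit, was at 139.4 and 144.3 RPKM in WT nFGO and 178.8 and 198.0 in KO nFGO (0.41, adjusted p = 0.0232). It was at 130.6 and 133.3 in WT FGO and 190.1 and 184.1 in KO FGO (0.50, adjusted p = 0.00741).

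The 18 elongation and initiation factors and other genes with TOP mRNAs had medians of 0.04 at GO1 and -0.13 at GO2, with 1 called higher at GO1, and 1 called higher and 2 lower at GO2. The gene called at GO1 was Pabpc1, which binds poly(A) tails (0.89, adjusted p = 0.0172), at 14.8 and 17.5 RPKM in WT and 35.4 and 26.8 in KO. Pabpc1 was also higher in KO at nFGO (1.19) and FGO (1.25). Those at GO2 were Eif3l (0.68), Eif3k (-0.50) and Naca (-0.31). At nFGO 2 of the 18 were called higher and 3 lower, and at FGO 1 higher and 2 lower.

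The 26 other initiation factors had medians of -0.04 at GO1 and -0.13 at GO2, with 1 called higher at GO1 and 3 lower at GO2. Eif1, which guards start codon choice, was called higher at GO1 (0.47) and lower at GO2 (-0.46), and Eif4a1 (-0.79) and Eif3m (-0.30) were called lower at GO2. At nFGO 0 were called higher and 2 lower, and at FGO 2 higher and 2 lower, with Eif5 lower at both (-0.82 and -1.02).

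Of 67 ribosome biogenesis factors, 1 was called higher and 5 lower in KO at GO1, with a median of -0.11, and 1 higher and 0 lower at GO2, with a median of 0.03. The shares of all genes called are those given above for each stage, and no test compared this list with the ribosomal protein genes. The box C/D snoRNP gene Nop58 was called lower at GO1 (-0.43) and higher at GO2 (0.43). Dkc1, the pseudouridine synthase, was called lower at GO1 (-0.64). At nFGO 3 were called higher and 8 lower, and at FGO 3 higher and 8 lower, with Bms1 lower at both (-0.91 and -0.53).

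The 20 genes of RNA polymerase I and its factors had 0 called higher and 1 lower at GO1 and 0 higher and 2 lower at GO2, with medians of 0.09 and -0.05. At nFGO 1 of them was called higher and 0 lower, and at FGO 2 higher and 0 lower. Of 16 tested genes listed under mTOR signalling to S6 and translation, 1 was called higher at GO1 (Tsc2, 0.77) and 1 lower at GO2 (Rheb, -0.36). At nFGO 1 was called higher (Pdk1, 1.26) and 1 lower (Rps6ka3, -0.69), and at FGO 2 were called higher and 1 lower. In mice Pdk1 is the symbol of a pyruvate dehydrogenase kinase, so its call does not speak of mTOR signalling. At FGO Rps6ka3, an S6 kinase family gene, was again lower (-0.91, adjusted p = 0.000238) and Akt1 higher (0.76, adjusted p = 0.047). Eif4ebp1, whose protein holds back cap-dependent initiation, was also called higher in KO at FGO (2.08, adjusted p = 0.000306). Of 5 tested genes of p53 and the 5S RNP, 0 were called in any of the 4 KO against WT comparisons.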

How the data were processed

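Single-end reads of amplified cDNA (SMARTer and Nextera XT kits, HiSeq2500, per the labels' protocols) came from 16 libraries of mouse oocytes. Per the file headers, the deposited table gives an RPKM value for each gene in each library, with the authors' own DESeq results for every stage (a log2 fold change and a p-value, of which only the log2 fold change was used, as a description). The submitters' processing notes name mm10 and, with no order, Cufflinks 2.2.1, Cuffnorm, deepTools 3.0.2, DESeq 1.34.1, HISAT2 2.1.0 and Trim Galore 0.4.5. The 8 columns of DESeq group means were not used, since the header does not name their groups. RPKM values keep no counts, so depth per library is unknown and no counting intervals are given.

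The 18060 lines of the table held 16975 gene IDs. 35 IDs with conflicting lines were left out (no members among them), which gave 16940 genes (174 with no value above 0), and 18 symbols that a spreadsheet had turned into dates were restored. The 14557 genes that reached 1 RPKM in 2 or more libraries were tested with limma 3.58.1 (R 4.3.3) on log2(RPKM + 1), with 1 mean per group, a variance trend, 8 residual and 4.01 prior degrees of freedom. A gene was called at a Benjamini-Hochberg adjusted p under 0.05 over all 14557 genes, in each of 13 comparisons. The procedure was tested on simulated data. Replicates correlated at r = 0.980 to 0.990 across genes.

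The members and lists were chosen with earlier results of these data known. Genes named are relatives with their partners, 8 genes with further roles, the 5 highest and 5 lowest by mean RPKM, the 6 called genes with the largest differences per KO against WT comparison (and for GO2 less GO1) with 2 against the median, 4 for the other comparisons, and up to 4 per other list, all with a mean of at least 5 RPKM in the higher group for the last 3 kinds. Some genes that this rule names are not reported here. Genes shared between comparisons are named beside their counts, and a few named genes were added after their values were seen. Alternatives were another pseudocount (0.1 or 5), no filter or one of 5 RPKM, quantile normalization, equal library medians, no variance trend, a replicate block, a fit of only the groups compared, and each library left out. The closing part gives their effect.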

Additional observations from a re-analysis of the deposited data

Results flagged for a closer look

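The KO effect differed between stages by the interaction test of limma in 3 comparisons. Between GO2 and GO1 it differed in 42 genes, all negative, and the largest were Rps19 (-1.09), Rps20 (-1.06), Rps23 (-0.87), Rpl36a (-0.84), Rps15a (-0.82) and Rps21 (-0.80). Between FGO and GO2 it differed in 10 genes, all positive, led by Rpl9 (0.86), Rps3 (0.83), Rps27 (0.75) and Rps21 (0.73). Between nFGO and GO2 it differed in 8 genes, all positive, led by Rpl9 (1.14), Rps27 (0.88), Rps27l (0.83) and Rps15a (0.72). The 3 comparisons share the GO2 libraries. Groups of 2 libraries were too small to look for single libraries far from their group.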

How the results depend on the processing

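Groups of 2 libraries limit every single call, and the libraries' depth is unknown. Medians kept their sign under the alternatives run apart from FGO, which ranged from -0.03 to 0.08 with single libraries left out, and the counts of calls moved. Of the settings tried over all reported results, 758 kept direction and call, 213 lost a call, 1 gained one and 2 reversed. The reversed ones are Rpl10l in KO against WT at GO2 without WT GO2 replicate 1 (-0.02, with a range of -0.02 to 0.48 over the libraries left out) and Rpl7l1 in the GO2 less GO1 effect without KO GO1 replicate 1 (-0.03, with a range of -0.03 to 0.36). The cause was not tested.

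Without the variance trend the counts were 7 at GO1, 4 at GO2, 4 at nFGO and 5 at FGO. They were 2 and 25 for early growth in WT and KO, and 8 for FGO against nFGO in KO. For the differences of effects they were 4 (GO2 less GO1), 3 (FGO less GO2) and 4 (nFGO less GO2). With only the groups compared, which have fewer samples, they were 0 at GO1, 3 at GO2, 4 at nFGO and 3 at FGO, then 4 and 0 for early growth, 3 and 6 for FGO against nFGO, and 0, 6 and 15 for the differences of effects.

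With quantile normalization the counts were 4 at GO2, 14 at FGO, 8 and 26 for early growth, 10 for FGO against nFGO in KO, 23 for GO2 less GO1 and 6 for FGO less GO2. The medians were -0.16 at GO2, 0.14 at nFGO, 0.12 at FGO, -0.29 for early growth in KO, -0.24 and 0.02 for late growth in WT and KO, and -0.16 for FGO against nFGO in KO. They were -0.47 for GO2 less GO1 and 0.30 for nFGO less GO2. With equal library medians, GO2 less GO1 had a median of -0.62 and nFGO less GO2 a count of 14.

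Same-numbered libraries did not deviate together (correlations of -0.00812 at GO1, -0.0187 at GO2, 0.0733 at nFGO and 0.0962 at FGO), so the numbers are not taken to pair the samples. With the replicate block the counts were 16 at GO1, 10 at GO2, 6 at nFGO, 7 for early growth in WT, 7 for FGO against nFGO in KO, and 0, 2 and 2 for the differences of effects in the order above.

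With single libraries left out, counts ranged from 0 to 38 at GO1, 0 to 3 at GO2, 2 to 4 at nFGO and 5 to 8 at FGO. They ranged from 0 to 2 and 5 to 43 for early growth in WT and KO, 24 to 29 and 22 to 29 for late growth, and 5 to 7 and 6 to 13 for FGO against nFGO. For the differences of effects they ranged from 0 to 51, 1 to 5 and 1 to 4. Medians ranged from 0.25 to 0.35 at GO1, -0.33 to -0.27 at GO2, 0.02 to 0.11 at nFGO, 0.16 to 0.25 and -0.42 to -0.35 for early growth, -0.18 to -0.11 and 0.04 to 0.22 for late growth, -0.21 to -0.14 and -0.28 to -0.18 for FGO against nFGO, and -0.61 to -0.54, 0.22 to 0.37 and 0.31 to 0.38 for the differences of effects.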
